A study of Mus musculus with 6 samples.

Results

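The array used to profile mouse liver carried 1104 probes whose names begin with humanlincRNA, and these probes are described here. They were taken by name from the 60915 probes that were neither controls nor negative probes. Each name ends in a plus or a minus sign, which gave 549 plus-strand and 555 minus-strand probes at 557 numbered loci. At 547 loci the array held a probe for each strand, and at 10 loci it held 1 strand (2 plus and 8 minus). The files give neither a sequence nor a position for these probes, and they do not state what the word human in the name refers to. The probes are therefore called by their names, and no sequence is shown.

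Long intergenic noncoding RNAs (lincRNAs) are transcripts from between protein-coding genes that are spliced and polyadenylated in many cases but do not encode a protein. They are usually present at lower levels than messenger RNAs, and many are restricted to 1 tissue or stage. The liver passes from a blood-forming organ before birth to a metabolic organ in the adult. A locus probed on both strands can report the lincRNA on one probe and antisense or background signal on the other.

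Total liver RNA of C57BL/6 mice was compared between 3 prenatal samples of embryonic day 18 and 3 adult samples of 2 months, with no treatment or engineered allele named. Another label gives the prenatal stage slightly later than the age field does, and the tissue field of those samples reads embryo where the title and source read liver. The RNA was bought from a supplier, per the labels, and the series describes 3 different animals. Each sample was read on 1 single-colour array labelled with Cy3, and precision is limited by this small number. In bulk RNA, fewer cells of a type and less RNA per cell cannot be told apart.

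Levels are log2 of the scanner's processed signal minus the 75th percentile of the same array, so 0 is the level of that percentile. Differences are adult minus prenatal, and positive values are higher in the adult. A probe was tested if 3 or more of the 6 arrays had it well above background by the scanner flag, and it was called at a limma adjusted p under 0.05 over all 32336 tested probes. Of the 23 marker genes listed for liver cell types, 2 had a named probe. These were Tfrc, the transferrin receptor of erythroid precursors, and B2m, the small subunit shared by MHC class I molecules. Tfrc was lower in the adult by a log2 difference of -3.62 and B2m higher by 2.75 (limma adjusted p = 0.000182 and 0.000785). Defining hepatocyte genes such as Alb had no named probe, so the labelled tissue could not be checked with them. Tfrc and B2m moved with age alongside all the differences below, and the part of cell composition in those differences was not tested.

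On these probes, 1 array, prenatal replicate 1, read differently from its group. It lay over 4-fold from the mean of prenatal replicates 2 and 3 for 51 of the 244 tested humanlincRNA probes (20.9%), against 12.5% of all tested probes. The shift was mostly upward: 40 probes (16.4%) lay above and 11 (4.51%) below, whereas over all tested probes the shares were 6.61% and 5.93%. Of the 40 probes, 24 were minus-strand and 16 plus-strand, and 36 had a lower mean in the adult. On the same array 25 of the 300 spots of negative probes were well above background, while the remaining arrays had 1 to 7. The 300 spots belonged to 15 probes, and 1 of the 15 had most of its spots well above background on prenatal replicate 1. The part of the negative-probe signal in the upward shift was not tested. Prenatal replicate 1 was scanned on the same date as adult replicate 3, and prenatal replicates 2 and 3 on the other date. The part of the scan date in the shift was not tested. For the largest prenatal-high differences and several probes highest on prenatal replicate 1, values without that array are given below.

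Most humanlincRNA probes did not reach the scanner's stricter flag, well above background, in either age. On none of the 6 arrays was signal well above background for 693 of the 1104 probes (62.8%). The laxer flag of a positive and significant signal was met on at least 1 array by 794 probes (71.9%) and on each single array by 452 to 592. The stricter flag was reached on 1 or 2 arrays by a further 167 probes, and on all 6 by 131. The tested probes numbered 244 (22.1%), against 53.1% of all probes on the array. They comprised 131 plus-strand probes (23.9% of that strand) and 113 minus-strand probes (20.4%). For comparison, 24.5% of the 649 mouselincRNA probes and 37.3% of the 83 probes named MM9LINCRNAEXON were tested.

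**Figure D1:**
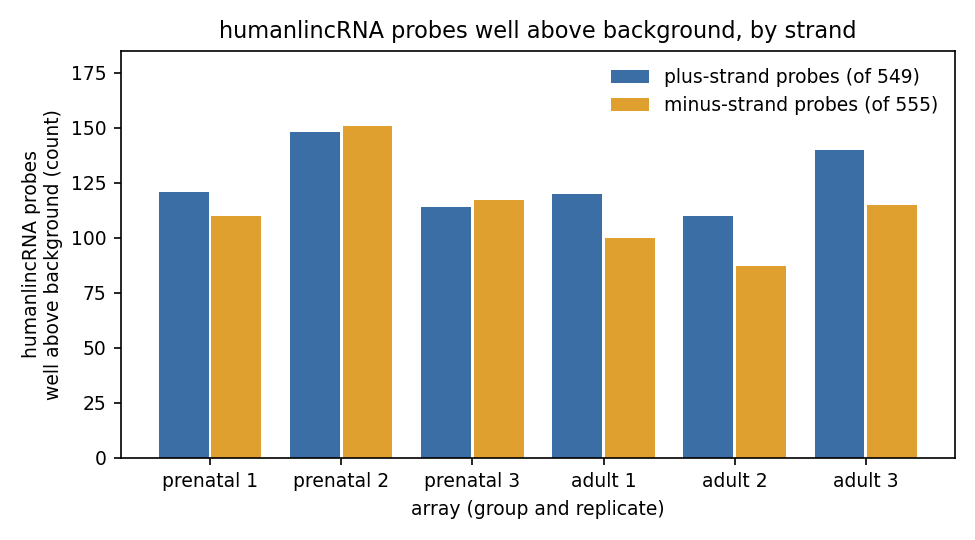
Number of humanlincRNA probes well above background on each array (y axis, count) for the 3 prenatal and 3 adult arrays (x axis), with plus-strand and minus-strand probes as separate bars. On each adult array the plus bar is higher than the minus bar, 120 against 100 on adult replicate 1, while on prenatal replicates 2 and 3 the minus bar is slightly higher.

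The number of detected humanlincRNA probes did not separate the ages. Prenatal arrays detected 231, 299 and 231 of them, and adult arrays 220, 197 and 255. The groups overlapped, with prenatal arrays at a mean of 253.7 ± 39.3 (SD, n = 3) probes and adult arrays at 224.0 ± 29.2 (SD, n = 3) (exact two-sided permutation p = 0.4). With 3 arrays against 3 this test cannot give less than 0.1. As a ratio to the share of all probes detected on the same array, the humanlincRNA share was between 0.396 and 0.454, and the ages overlapped there too (exact permutation p = 0.6). More prenatal than adult arrays detected 155 of the probes, the reverse held for 96, and 160 were detected on equal numbers of arrays in each group.

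On each adult array a larger share of the plus-strand than of the minus-strand probes was detected. Prenatal arrays detected 121, 148 and 114 plus-strand probes, and adult arrays 120, 110 and 140. Minus-strand probes detected before birth numbered 110, 151 and 117, and those in the adult 100, 87 and 115. The share of plus-strand probes detected exceeded that of minus-strand probes by 3.84, 4.36 and 4.78 percentage points on the adult arrays. On the prenatal arrays the same difference was 2.22, -0.25 and -0.32 points. The groups did not overlap, and the exact two-sided permutation p was 0.1, the smallest possible. This comparison was added after the values were seen. The mouselincRNA probes differed in the other direction, with a lower plus than minus share on each of the 6 arrays, for example 19.6% against 22.6% on adult replicate 1. The MM9LINCRNAEXON probes had the higher plus share on 5 of the 6 arrays, for example 32.0% against 24.2% on adult replicate 2, and the lower one on adult replicate 1, at 36.0% against 36.4%.

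Between the ages, 39 of the 244 tested humanlincRNA probes were called (16.0%), against a background of 27.8% of all tested probes. Of these, 21 were higher in the adult, where the background was 15.8% of all tested probes, and 18 were higher before birth, where it was 12.0%. At an unadjusted limma p under 0.05 there were 71 probes. The called share was 26.4% for mouselincRNA (42 of 159) and 25.8% for MM9LINCRNAEXON (8 of 31). No test of the difference between these shares was made. The median log2 difference of the tested humanlincRNA probes was -0.04 (0.06 over all tested probes), and the median absolute difference was 0.61 (0.73 over all).

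The spread between replicates was wider on these probes than on the array as a whole. Their median SD was 0.56 before birth and 0.41 in the adult, against 0.49 and 0.32 over all tested probes. The 205 probes that were not called had a median half-width of the 95% confidence interval of 1.03, so for many of them the interval holds a 2-fold difference. The probe just inside the threshold was humanlincRNA0323- (adjusted p = 0.0495), and the probe just outside was humanlincRNA0384- (adjusted p = 0.0514).

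The called share was also read by signal strength. Among tested probes with a mean log2 level below -2, 20.0% of 100 humanlincRNA probes and 27.4% of all probes were called. At levels from -2 to 0 the shares were 13.0% and 24.8%, from 0 to 2 they were 12.5% and 29.8%, and from 2 upwards they were 14.8% (4 of 27 probes) and 30.6%. The humanlincRNA share was the lower one in each of the 4 ranges. The median standard error was 0.42 and 0.41 in the lowest range and 0.66 and 0.33 in the highest, for humanlincRNA and for all tested probes. These ranges were set after the values were seen, and the part of signal or error in the shares was not tested.

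**Figure D2:**
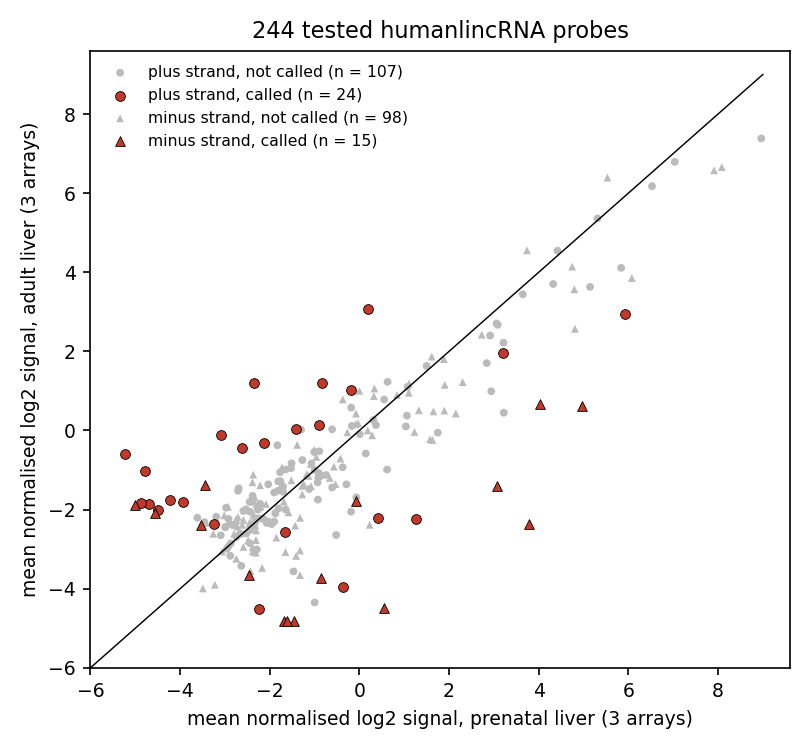
Mean normalised log2 signal of the 244 tested humanlincRNA probes in prenatal liver (x axis, 3 arrays) and adult liver (y axis, 3 arrays), with circles for the plus strand, triangles for the minus strand, red for called probes and a line of equal level. Above the line lie 21 called probes, 17 of them plus-strand, and below it 18, of which 11 are minus-strand.

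Direction was divided unevenly over the strands. Of the 24 called plus-strand probes, 17 were higher in the adult and 7 before birth, and of the 15 called minus-strand probes, 4 were higher in the adult and 11 before birth. Among the mouselincRNA probes the corresponding counts were 16 and 7 on the plus strand and 12 and 7 on the minus strand. Without prenatal replicate 1 the called humanlincRNA probes numbered 61, with 24 and 11 on the plus strand and 11 and 15 on the minus strand. Without adult replicate 3 there were 25 calls. The file headers give 2 scan dates. Within the date that held 2 arrays of each age 49 probes were called, and with the scan date as a block 64. The fit within that date leaves out prenatal replicate 1 and adult replicate 3. Without any overlap between the ages were 88 of the 244 tested probes (36.1%), against a background of 47.6%. The 39 called probes were among those 88.

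Of the calls, 12 lay well above background on all 6 arrays, so their folds rest on measured signal in both ages. Among these, 5 were higher in the adult, from 2.06-fold for humanlincRNA0077+ to 7.26-fold for humanlincRNA1166+. The other 7 were higher before birth, from 2.35-fold for humanlincRNA1211+ to 22.3-fold for humanlincRNA0970-. These end points were chosen after their values were seen. With 1 array left out at a time, humanlincRNA0077+ and humanlincRNA1211+ were called only without prenatal replicate 1. In the other fits their limma adjusted p were 0.084 to 0.149 and 0.067 to 0.115. For the other called probes at least 1 array gave no signal well above background. A fit of only the probes above background on all 6 arrays called the same 12. They were 9.16% of the 131 humanlincRNA probes in that fit, against 26.1% of all its 22848 probes.

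The largest adult-high differences were mostly signals well above background in the adult and not well above background before birth. HumanlincRNA1364+ had log2 levels of -0.60, -0.70 and -0.46 in the adult, and it was not well above background on any prenatal array, where the measured values were -4.78, -5.89 and -5.02. The prenatal values are the lowest the scanner gives on those arrays and carry no order. Against the lowest signal well above background, its adult level was at least 4.99-fold higher (limma adjusted p = 0.000239; measured means -5.23 and -0.59). HumanlincRNA1939+ had adult levels of -1.43, -1.06 and -0.57 and was not well above background before birth (mean -4.79), at least 3.69-fold higher in the adult (limma adjusted p = 0.00409). HumanlincRNA1297+ (-1.60, -1.58 and -2.29 in the adult, mean -4.87 before birth) was at least 2.12-fold higher. HumanlincRNA0255- (-1.52, -1.53 and -2.62 in the adult, mean -5.01 before birth) was at least 2.02-fold higher. Their limma adjusted p were 0.000627 and 0.00149. In these 4 probes every adult array was above every prenatal array, and the adult levels themselves stayed under the 75th percentile. With a normexp background correction, which draws dim values together, humanlincRNA1939+, humanlincRNA1297+ and humanlincRNA0255- were not called, and humanlincRNA1364+ was. Over all alternatives the log2 differences of those 3 went down to 0.88, 0.61 and 0.59, and that of humanlincRNA1364+ to 1.104. All 4 values lie under the bounds given, which hold for the main scaling.

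HumanlincRNA1172+ differed from them in that some prenatal arrays detected it. Its levels were 1.28, 0.91 and 1.45 in the adult and -2.61, -2.15 and -2.32 before birth, well above background on 2 of the 3 prenatal arrays. The adult arrays were close together and far from the prenatal ones. The log2 difference was 3.57 (standard error 0.27), so the adult was higher by 11.9-fold (limma adjusted p = 0.000263). Its size depended on the processing, with a log2 difference from 1.81 to 3.73 over all alternatives.

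The largest prenatal-high differences were mostly on the minus strand, with wide spread between prenatal arrays. HumanlincRNA2316- had levels of 5.70, 2.20 and 3.43 before birth and -4.01, -1.88 and -1.18 in the adult, where 2 of the 3 arrays were well above background. Prenatal replicate 1 was the highest array, and the groups were still apart without it. The log2 difference was -6.13 (standard error 1.05), that is, prenatal liver was higher by 70.3-fold (limma adjusted p = 0.00661), and 36.1-fold without prenatal replicate 1 (adjusted p = 0.00509). The size moved with other arrays too. It was 39.6-fold without adult replicate 1, the array not well above background, 106-fold without adult replicate 3 and 121-fold without prenatal replicate 2, and the probe was called each time. Its log2 difference ran from -6.92 to -4.03 over all alternatives. HumanlincRNA0970-, measured on all 6 arrays, had levels of 4.50, 2.13 and 2.61 before birth and -1.28, -1.15 and -1.78 in the adult. It was 22.3-fold higher before birth (limma adjusted p = 0.00275), and 13.7-fold without prenatal replicate 1. Its log2 difference ran from -4.96 to -3.14 over all alternatives. HumanlincRNA2266-, also measured on all 6 arrays, had levels of 7.13, 3.75 and 4.004 before birth and -0.30, 0.45 and 1.73 in the adult. It was 20.2-fold higher before birth (limma adjusted p = 0.0189), and 9.52-fold without that array (adjusted p = 0.00666). It was 30.7-fold without prenatal replicate 2, and the call was lost without adult replicate 1 or 2 (limma adjusted p = 0.0674 and 0.0682).

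For the other 2 of the 5 largest, the adult arrays gave no signal well above background. HumanlincRNA2433- had prenatal levels of 2.82, -0.87 and -0.32 and an adult mean of -4.49, at least 8.24-fold higher before birth (limma adjusted p = 0.00932). The bound was 3.74-fold without prenatal replicate 1 (adjusted p = 0.000579) and 13.4-fold without prenatal replicate 2. HumanlincRNA0075+ had prenatal levels of 0.52, -1.22 and -0.39 and an adult mean of -3.95, at least 4.39-fold higher before birth (limma adjusted p = 0.0112), with a bound of 3.23-fold without prenatal replicate 1. Its call was lost without adult replicate 3 (adjusted p = 0.0509). In both, prenatal replicate 1 was again the highest array. Without it, 16 of the 18 prenatal-high and all 21 adult-high calls still passed the threshold, and the 2 that did not were humanlincRNA0323- and humanlincRNA1153+. Fewer were kept without another array. Prenatal-high calls kept were 14 and 12 without prenatal replicates 2 and 3, and 10, 9 and 10 without adult replicates 1, 2 and 3. Adult-high calls kept were 19, 16, 15, 16 and 14 in the same order. With normexp 8 and 8 were kept, and humanlincRNA2433- and humanlincRNA0075+ were lost. Over all alternatives the log2 differences of these 2 probes shrank to -1.66 and -0.95, smaller than the bounds given. With replicate number as a block 7 and 15 were kept.

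**Figure D3:**
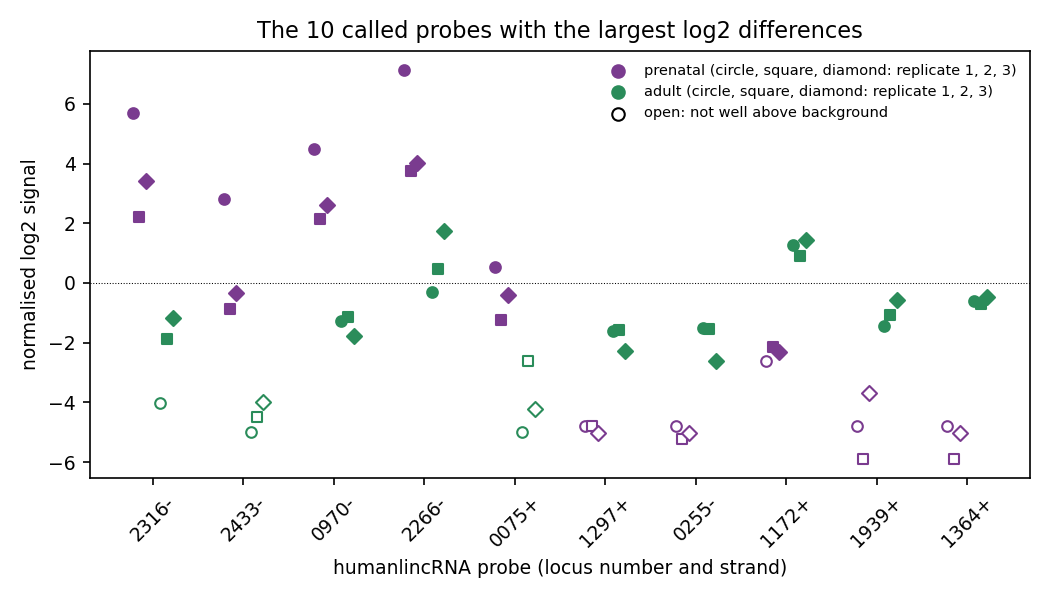
Normalised log2 signal (y axis) on each array for the 10 called humanlincRNA probes with the largest differences (x axis, locus number and strand), prenatal in purple and adult in green, with open symbols where a spot was not well above background. The prenatal circle, replicate 1, is the highest point of each of the 5 prenatal-high probes on the left, at 5.70 for humanlincRNA2316-, and the 4 adult-high probes 1297+, 0255-, 1939+ and 1364+ have open prenatal symbols.

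Detection on all arrays of one age and none of the other was seen for 23 humanlincRNA probes. The prenatal-only probes numbered 14 (1.27% of the 1104, against a background of 2.19% of all probes), and 8 of them were called. The adult-only probes numbered 9 (0.815%, against a background of 0.827%), and 8 of them were called. All these probes passed the detection filter only through the age that detected them. That choice favours a call on the same arrays, so their calls and adjusted p, here and above, are a description and not separate support. The lower bounds of the fold ran from 1.02 to 8.24 for the prenatal-only and from 1.48 to 4.99 for the adult-only probes. Beyond those already given, humanlincRNA0289+ was at least 2.06-fold and humanlincRNA1148+ at least 2.21-fold higher in the adult (limma adjusted p = 0.000823 and 0.00634), and humanlincRNA2010- was at least 3.11-fold higher before birth (adjusted p = 0.0264). The call of humanlincRNA2010- was lost without prenatal replicate 3, adult replicate 1 or adult replicate 2 (limma adjusted p = 0.0716, 0.0646 and 0.0731). With a normexp correction the calls of humanlincRNA0289+, humanlincRNA1148+ and humanlincRNA2010- were lost. Over all alternatives their log2 differences shrank to 0.57, 0.43 and -0.72, smaller than the bounds given. The prenatal-only probes humanlincRNA0127+, humanlincRNA0823- and humanlincRNA1852- missed the threshold (limma adjusted p = 0.087, 0.0574 and 0.133). Their prenatal replicate 1 levels of 2.00, 0.37 and 0.45 lay well above the other prenatal arrays, which ranged from -2.55 to -1.99. Without that array all 3 passed the threshold (limma adjusted p = 0.019, 0.0217 and 0.0433), with smaller differences of -1.85, -1.48 and -0.83 in place of -3.35, -2.33 and -1.76. The highest bound among the prenatal-only probes was then 3.74-fold.

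The opposite strands of a locus were seldom both detected. Of the 547 loci with a probe on each strand, 29 had both tested, 101 the plus probe only, 83 the minus probe only and 334 neither. The minus probe was tested at 22.3% of the loci where the plus probe was tested and at 19.9% of those where it was not. No locus had calls on both strands. The 39 calls lay at 39 loci, and for 32 of them the opposite probe was not tested. In 27 of these 32 the opposite probe was well above background on no array.

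At the 29 loci where both strands could be compared, the strands had the same sign of difference at 15 and opposite signs at 14. The difference between the strands' changes was fitted with limma over 53 lincRNA loci of the array that had both probes tested. It was called at 4 of the 29 humanlincRNA loci, against 30.2% of all 53, which include these 29. At an unadjusted p under 0.05 there were 5. In each of the 4, one strand was called and the other was not.

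At locus 1364 the minus probe was measured on all 6 arrays, with 2.55, 2.66 and 2.98 before birth and 2.77, 2.72 and 1.78 in the adult. The ages overlapped on that strand, with a difference of -0.31 and a 95% interval from -1.13 to 0.52, while the plus probe appeared in the adult as described. The plus change exceeded the minus change by 4.95 with a standard error of 0.58 (limma adjusted p = 0.00132). As the plus probe was not well above background before birth, this size depends on the scanner's lowest values and is not a measured amount. At locus 2316 the minus probe carried the fall, and the plus probe lay close to background in both ages, at -2.73, -2.89 and -3.33 before birth and -2.58, -2.05 and -2.67 in the adult. The plus change exceeded the minus change by 6.68 with a standard error of 1.07 (limma adjusted p = 0.00681), and by 5.85 without prenatal replicate 1 (adjusted p = 0.00823).

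Locus 0289 had its adult signal on the plus strand, whereas humanlincRNA0289- read -1.96, -2.91 and -2.06 before birth and -4.10, -2.84 and -2.33 in the adult, with overlapping ages (limma adjusted p of the unequal change 0.0163). HumanlincRNA0289+ and humanlincRNA1364+ were not well above background before birth and passed the detection filter only through the adult arrays. That choice favours an unequal change, so the strand calls and adjusted p at loci 0289 and 1364 are a description and not separate support. Locus 0891 was the one called locus where the plus strand moved towards prenatal liver. HumanlincRNA0891+ had levels of 1.80, 0.51 and 1.45 before birth and -2.77, -1.96 and -2.01 in the adult, 11.3-fold higher before birth (limma adjusted p = 0.00156). Its log2 difference ran from -3.87 to -1.76 over all alternatives. HumanlincRNA0891- had a difference of -0.50 with a 95% interval from -1.67 to 0.67, and the unequal change was called at an adjusted p of 0.018. Loci 1364 and 2316 were called without each array in turn. Loci 0289 and 0891 were lost without prenatal replicate 3 and without adult replicate 1, and locus 0891 also without prenatal replicate 2 and without adult replicate 3. With a normexp background correction, which draws dim values together, loci 0891 and 2316 were called and loci 1364 and 0289 were not.

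The next 4 loci did not pass the threshold. Locus 2217 had an unequal change of 2.14 (limma adjusted p = 0.136), locus 1016 one of 1.69 (0.158), locus 0459 one of 1.54 (0.184) and locus 2163 one of -1.03 (0.243). On 3 of these the minus probe was highest on prenatal replicate 1, at 3.22 for humanlincRNA2217-, 5.93 for humanlincRNA1016- and 8.11 for humanlincRNA0459-. Without that array the unequal changes at those 3 loci were 1.27, 1.04 and 0.85 (limma adjusted p = 0.182, 0.235 and 0.275). HumanlincRNA2163+ has no value on prenatal replicate 3, where its spot was flagged as an outlier.

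**Figure D4:**
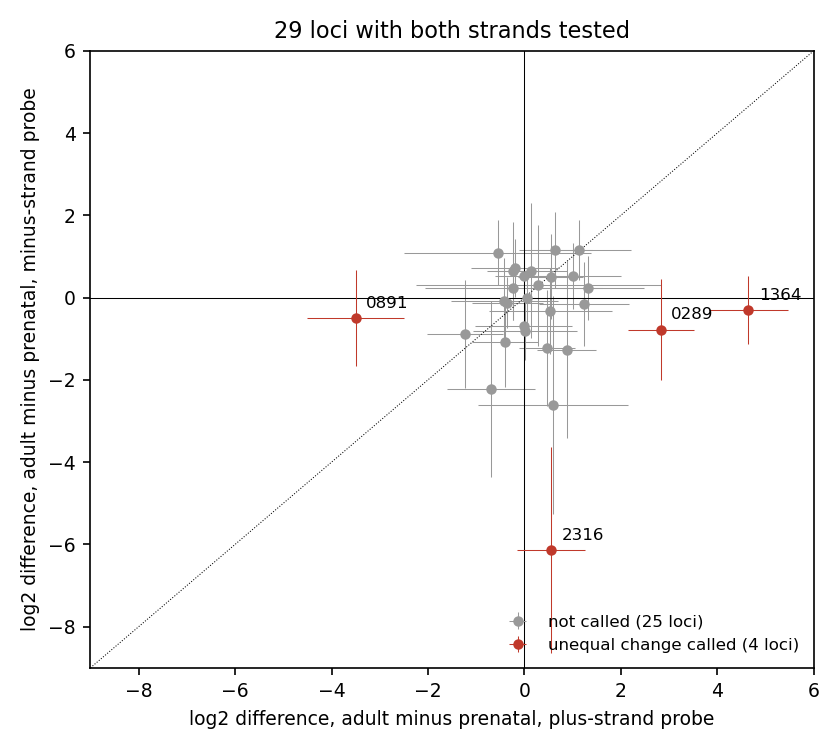
Log2 difference, adult minus prenatal, of the plus-strand probe (x axis) and the minus-strand probe (y axis) at the 29 loci with both tested, with 95% intervals from the limma fit and a dotted line of equal change. The 4 called loci, in red, lie along one axis each: 1364, 0289 and 0891 along the plus axis, and 2316 at -6.13 along the minus axis.

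The brightest humanlincRNA probes were not called. HumanlincRNA0635+ had levels of 10.31, 8.13 and 8.45 before birth and 6.62, 7.58 and 7.96 in the adult, a difference of -1.58 with a 95% interval from -3.13 to -0.03 (limma adjusted p = 0.117). Without prenatal replicate 1 the difference was -0.91 (adjusted p = 0.146). HumanlincRNA1945- and humanlincRNA1382- had the same order of arrays at the ends, with prenatal replicate 1 highest (9.50 and 9.39) and adult replicate 1 lowest (5.82 and 5.59), differences of -1.43 and -1.33, and adjusted p of 0.175 and 0.224. Without prenatal replicate 1 their differences were -0.72 and -0.60. In contrast, humanlincRNA2438+ stayed between 6.68 and 7.09 on all 6 arrays, with a difference of -0.24 (95% interval from -0.78 to 0.29).

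A few probes were level across birth within narrow limits. HumanlincRNA1739+ had levels of 5.34, 5.43 and 5.17 before birth and 5.58, 5.24 and 5.27 in the adult, a difference of 0.05 with a 95% interval from -0.52 to 0.62. HumanlincRNA0926+ (-0.05, interval from -0.68 to 0.59) and humanlincRNA2354- (-0.01, interval from -0.63 to 0.60) had similar limits. For humanlincRNA2199+ the interval ran from -0.67 to 0.67. These 4 were chosen for small differences and small SDs, so their differences are a description.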

How the data were processed

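Per the submitters' processing notes, Agilent Feature Extraction 11.0.1.1 produced the scanner files that the authors deposited, in which the processed signal is a background-subtracted intensity on a linear scale. A table with log2 values of 17307 probes, deposited by the authors too, served as an alternative. Its scaling is not given in the sources used here, but 97.1% of its values differed by under 0.05 from quantile-normalised log2 scanner signals, in the direction of the scanner signals, and its column medians were 6.10, 6.02 and 6.11 (prenatal) and 5.94, 6.05 and 6.05 (adult). Labelling used oligo(dT) and random primers, per the labels' protocols. Each array had 61500 non-control spots, with 45.1% to 60.5% well above background and none saturated.

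Control spots and outlier-flagged spots were left out, the spots of a probe were averaged, and log2 signals were scaled to the 75th percentile of each array. The ages were compared by limma 3.58.1 under R 4.3.3 (lmFit, eBayes, two-sided, Benjamini-Hochberg over all 32336 tested probes). The strand comparison was fitted on the plus minus the minus value of each array. Both fits were tested on simulated data. Where a probe was not well above background on any array of a group, the fold is a lower bound against the lowest signal well above background on each of those arrays. Replicate numbers come from the titles; same-numbered arrays did not deviate together. The p-values measure the spread between these RNA samples.

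The members, lists and the rule for named probes were chosen with earlier results of these data known. The rule took the 5 largest non-overlapping calls in each direction, up to 6 probes in each direction seen on all arrays of one age and none of the other, the 8 loci with the smallest p for unequal strands, the 4 brightest probes and 4 with the smallest differences. Alternatives covered background correction (normexp on the median spot and background signals), scaling, detection filter, eBayes variance settings, array weights by 2 estimators, scan date and replicate number as blocks, the deposited table and each array left out; the gene-by-gene weights, the signal ranges, the strand shares and the counts on prenatal replicate 1 were added after seeing the data.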

Additional observations from a re-analysis of the deposited data

Results flagged for a closer look

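The negative probes of the array, which no comparison used, gave signal well above background on 4 arrays beyond the 3 spots that a count of 0 allows. Of 300 such spots, 25 were well above background on prenatal replicate 1, 6 on prenatal replicate 2, 5 on prenatal replicate 3 and 7 on adult replicate 3. On the same arrays 20.9%, 27.1%, 20.9% and 23.1% of the humanlincRNA probes were well above background. The 300 spots belonged to 15 negative probes. Only on prenatal replicate 1 did 1 of them have most of its spots well above background.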

How the results depend on the processing

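Signal over background limits these probes, since 27 of 39 calls had at least 1 array without it. No called probe chosen by the naming rule changed sign under an alternative. Of the probes chosen by that rule that were not called, 8 did, the 4 steady probes among them. The median log2 difference of the tested probes, -0.04, also turned sign, to 0.05 with a normexp correction, 0.03 without prenatal replicate 1, 0.003 without adult replicate 1 and 0.41 with no filter. The balance of 21 adult-high against 18 prenatal-high calls turned in 3 settings, normexp, all 6 arrays and scan date as a block. The calls numbered 18 with a normexp correction and an offset of 50 (8 adult-high and 10 prenatal-high; 12 plus and 6 minus) and 12 on probes above background on all 6 arrays (5 and 7; 8 and 4). With no filter on dim probes there were 32 adult-high and 24 minus-strand calls, and with probes above background on at least 1 array 24 minus-strand calls. The planned array weights, with limma's default estimator, gave 117 calls (61 and 56; 68 and 49), but that estimator stopped without converging and gave prenatal replicate 3 a weight of 29.4. Weights estimated gene by gene, a method chosen after that output was seen, gave 86 (51 and 35; 51 and 35). With the scan date as a block there were 64 calls (31 and 33; 38 plus and 26 minus). With the replicate block there were 22 (7 prenatal-high, with 15 plus and 7 minus). In each setting the called share of humanlincRNA probes lay below that of all probes in the same fit. It was 7.38% against 20.7% with normexp and 9.16% against 26.1% on probes above background on all 6 arrays. With the default weights it was 48.0% against 59.4%, and with gene-by-gene weights 35.2% against 47.5%. The scan date block gave 26.2% against 35.9%, and the replicate block 9.02% against 13.9%. Same-numbered arrays had deviations correlated at -0.53, -0.35 and -0.31, which shows no pairing by number. With 3 arrays in each group this cannot exclude one.

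With 1 array left out at a time there were 25 to 61 calls, 15 to 35 adult-high and 10 to 26 prenatal-high, 15 to 35 plus and 9 to 26 minus. The highest count of calls came without prenatal replicate 1 and the lowest without adult replicate 3. Groups did not overlap for 38 of 131 probes above background on all 6 arrays, 136 of 411 above on at least 1 and 171 of 1104 without a filter. Within the scan date that held 2 arrays of each group the count was 139 of 244. With 2 arrays against 2 non-overlap is easier to reach, so this count cannot be compared with the 88 on all arrays. The shares over all probes in these settings are not given, so these counts are no result about the humanlincRNA probes. Loci with unequal strands numbered 2 with normexp, 7 with the scan date as a block, 2 with the replicate block and 2 to 4 without each array. On the 8 loci above background on all 6 arrays limma called 0, with 3 at an unadjusted p under 0.05.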
